A study of Mus musculus with 4 samples.

Results

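The cells described here are marrow cells with a transcript of Cxcr2, the receptor through which neutrophils follow the chemokines CXCL1 and CXCL2, in 1 library of Rbm5 knockout (KO) and 1 library of wild-type (WT) c-Kit+ mouse bone marrow. They were chosen on measured values: at least 500 genes, at least 1000 unique molecular identifiers (UMIs, each a counted transcript) and at most 10% mitochondrial UMIs (QC cells), at least 1 UMI of Cxcr2, no UMI of the proliferation genes Mki67 and Top2a, and under 1% of UMIs from the primary granule genes Elane, Mpo, Prtn3 and Ctsg. The rule kept 1619 of 13708 QC cells in the KO library and 1663 of 12948 in the WT library, 3282 of 26656 in all, and of 51611 QC cells in the whole series.

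Neutrophils are made in the marrow from promyelocytes that first fill primary granules with elastase and myeloperoxidase, then secondary granules with lactoferrin and cathelicidin, and finally gelatinase granules. As division stops and the cells mature, CXCR2 is gained and favours release into the blood, while CXCR4 holds cells in the marrow. Mature neutrophils are known for rapid chemotaxis and for ready transcription of IL-1beta and chemokines after stimulation.

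The study set KO against WT mouse leukaemia cells driven by the fusion MLL-AF9, with normal c-Kit+ marrow of both genotypes beside them, and asked how the RNA-binding and splicing factor RBM5 acts on their expression programs. The KO and WT c-Kit+ groups are bone marrow labelled as c-Kit positive, with no treatment or transgene named for either; how Rbm5 was deleted, the age of the mice and the number of mice behind a library are not given in the sources used here. Each group is 1 droplet library read from poly-dT primers, so KO and WT are compared with no replicate check and no test: intervals are exact 95% intervals that cover counting error only, and a gene is called past a fold as a rule of size.

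The KO and WT libraries held 14577 and 13480 barcodes. The Cxcr2 cells carried 5730671 UMIs in KO and 6059628 in WT, with a median of 3173 UMIs a cell in KO and 3300 in WT, against 6294 and 6235 in the other QC cells. No barcode was shared between the KO and WT Cxcr2 cells, and 52 were shared between the QC cells of both libraries. Scrublet, run on each library, marked 37 KO and 54 WT Cxcr2 cells as doublets (2.29% and 3.25%); they were kept in the main values. Levels are summed UMIs of a gene scaled to a common total (CPM). Kit, the receptor on which the marrow was selected, had 13.79 CPM in KO and 13.04 CPM in WT Cxcr2 cells, against 45.7 and 48.1 CPM in the other QC cells. A Kit UMI was found in 4.08% of KO and 3.79% of WT Cxcr2 cells, below the 8.38% and 8.08% of B lineage cells, so the label of c-Kit+ marrow was not borne out by transcripts in these cells.

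Among the 5 markers of late neutrophils, Cxcr2 was in every cell by the rule. Retnlg, a secreted resistin-like protein, had UMIs in 91.0% of KO and 91.8% of WT Cxcr2 cells; the gelatinase Mmp9 in 87.3% and 89.7%; and the neutrophil collagenase Mmp8 in 79.4% and 83.3%. Il1b was found in 12.4% (interval 10.9 to 14.1) of KO and 10.5% (9.09 to 12.1) of WT cells. B lineage cells, which should lack these genes, served as a reference. The B gate took cells with UMIs of 2 or more of 5 B lineage genes (median 2205 UMIs in KO, 2324 in WT). Its shares with a UMI in KO and WT were 30.9% and 25.2% for Retnlg and 10.9% and 10.5% for Mmp9. They were 8.19% and 8.94% for Mmp8, 1.61% and 1.26% for Il1b and 4.47% and 4.24% for Cxcr2. The B gate also had 1799 and 1243 CPM of Elane, against 129.1 and 83.7 CPM in the Cxcr2 cells. What part of its UMIs came from free RNA or from mixed cells was not tested. Retnlg, Mmp9, Mmp8 and Il1b stood above the B gate shares in the Cxcr2 cells, but Il1b was absent from most Cxcr2 cells.

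Secondary granule transcripts were still abundant. Ngp, Camp and Ltf, which encode neutrophilic granule protein, cathelicidin and lactoferrin, together took a median of 6.76% of a cell's UMIs in KO and 6.36% in WT, and at least 2% in 73.1% of KO and 73.7% of WT cells. Only 321 KO cells (19.8%) and 325 WT cells (19.5%) held under 1%. Retnlg, Mmp8 and Mmp9 set these cells apart from the B gate, but did not by themselves bear out the label "late". Cells within the same limits and with at least 2% secondary granule UMIs, with or without Cxcr2, mostly held them too. Retnlg was found in 87.3% of these in KO and 85.1% in WT, Mmp9 in 84.6% and 85.3%, and Mmp8 in 65.8% and 66.3%. Those without Cxcr2 had lower levels of each than the Cxcr2 cells, with Retnlg at 4489 CPM in KO and 4318 CPM in WT. The low secondary granule level and Il1b of the latest stage were found in a minority. The cells are called Cxcr2 cells here.

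Among Cxcr2 cells without Mki67 or Top2a, the primary granule limit cut little, setting aside 5 cells in KO and 8 in WT. Between 0.5% and 1% of primary granule UMIs there was 1 cell in each library. The 3 KO cells nearest the limit held 0.620%, 0.454% and 0.413%, and those just outside 2.86%, 4.17% and 4.39%; in WT the values were 0.770%, 0.363% and 0.343% inside and 1.10%, 2.82% and 3.15% outside. The Cxcr2 limit bears more weight, since 1051 KO cells (64.9%) and 1059 WT cells (63.7%) rested on a single UMI. Cells with 1 UMI of Cxcr2 had 11592 CPM of Retnlg in KO and 13488 CPM in WT, and cells with 3 or more had 24758 and 25532 CPM. Their median secondary granule share was 7.77% in KO and 7.13% in WT with 1 UMI, and 3.45% and 3.13% with 3 or more.

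The Cxcr2 cells made up 11.8% of QC cells in KO (interval 11.3 to 12.4) and 12.8% in WT (12.3 to 13.4), a KO over WT ratio of 0.920 (0.858 to 0.985). This order came with the criterion on Mki67 and Top2a. Before it, a Cxcr2 UMI was more frequent in KO, in 18.9% of QC cells (18.3 to 19.6) against 17.9% in WT (17.2 to 18.6); the criterion then set aside 971 KO and 646 WT cells. Cells with a UMI of Mki67 or Top2a were 55.5% of QC cells in KO and 50.3% in WT. Counted over QC cells without such a UMI, the Cxcr2 cells were 26.5% in KO (25.4 to 27.7) and 25.9% in WT (24.8 to 27.0), a ratio of 1.03 (0.957 to 1.10). With every cell thinned to 1000 UMIs before the rule, the shares were 5.85% in KO and 5.80% in WT. A lower share of these cells in KO marrow thus did not hold over a common denominator of non-cycling cells.

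The Cxcr2 cells that carried Mki67 or Top2a differed from those kept in depth and in some levels. They had a median of 9067 UMIs in KO and 9606 in WT, 128.9 and 120.7 CPM of Cxcr2, 2030 and 2500 CPM of Retnlg and 2958 and 2374 CPM of Elane, the primary granule elastase. The Cxcr2 cells kept by the rule had 435.4 and 423.5 CPM of Cxcr2, 14855 and 16397 CPM of Retnlg and 129.1 and 83.7 CPM of Elane. Cxcr2 and Elane were in part set by the selection. Both sets needed a Cxcr2 UMI, and 138 KO and 74 WT cycling cells were also over the primary granule limit. Camp was closer, at 56306 and 58346 CPM against 45680 and 42654 CPM in the kept cells. Ngp had 23191 and 23548 CPM against 22602 and 21616 CPM.

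**Figure D1:**
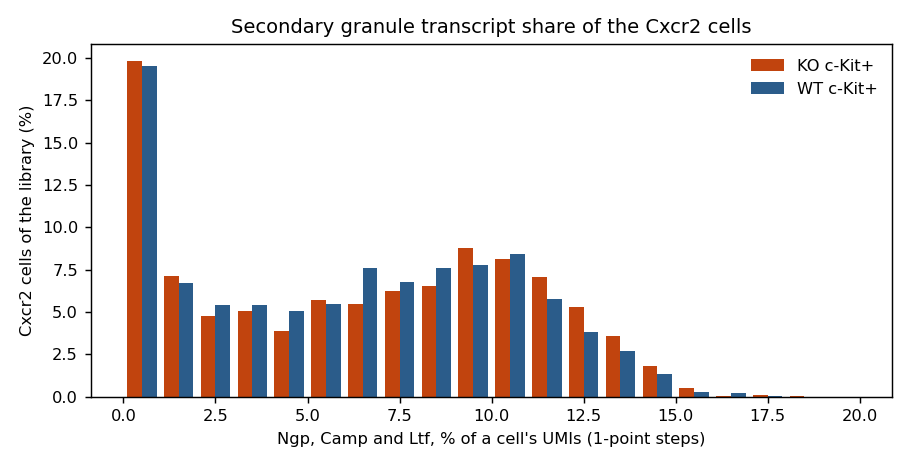
Share of Cxcr2 cells of each library (y axis, percent) by the percent of a cell's UMIs from Ngp, Camp and Ltf (x axis, 1-point steps); bars are KO and WT c-Kit+ libraries, 1619 and 1663 cells. Both libraries show a group under 1% (19.8% of KO and 19.5% of WT cells) and a broad range above it, with medians of 6.76% and 6.36%.

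The Cxcr2 cells were then ordered by their secondary granule share and divided into 5 bins of equal size over both libraries, at 1.05%, 4.70%, 7.98% and 10.6% of UMIs. These are ranges of a continuous value, not types: 151 KO and 142 WT cells lay within 0.5 percentage points of the lowest limit. The lowest bin held 327 KO and 330 WT cells and the highest 358 and 299. Median depth differed along the order, from the lowest to the highest bin 1955, 2644, 3064, 3644 and 4550 UMIs in KO, and 2095, 2719, 3382, 3777 and 4616 in WT, so levels are given as CPM. Levels along the order leave out the cells with basophil and mast genes described further on, most of which sat in the lowest bin.

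Cxcr2 itself declined with the secondary granule share. The rule required at least 1 Cxcr2 UMI in every cell, so its lowest possible CPM falls as depth rises along the order. How much of the decline comes from this was not tested. From the lowest bin upward it had 838.4, 607.6, 464.0, 357.8 and 260.5 CPM in KO, and 797.8, 590.7, 437.6, 335.1 and 256.2 CPM in WT. Retnlg followed the same order, with 37846, 35363, 17694, 6532 and 2695 CPM in KO and 43160, 34232, 18236, 8568 and 2663 CPM in WT. Mmp8 was highest not in the lowest bin but in the next: 2161, 3140, 2842, 1690 and 741.2 CPM in KO, and 2433, 3383, 3299, 2241 and 850.6 CPM in WT. Mmp9 had 1454, 1981, 1754, 1447 and 851.2 CPM in KO, highest in the same bin as Mmp8, and 1545, 1942, 1979, 1591 and 960.8 CPM in WT, highest one bin later. In each library the 2 metalloproteases thus peaked in cells that still held secondary granule transcripts.

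Il1b was concentrated in the lowest bin. It had 833.2, 72.4, 20.4, 15.2 and 1.68 CPM along the order in KO, and 689.0, 64.4, 38.1, 8.72 and 4.03 CPM in WT. Over all cells of a bin, with cells thinned to 1000 UMIs, an Il1b UMI was found in 35.2% of KO and 26.1% of WT cells of the lowest bin, and in 6.09% and 4.65% of the next. The receptor for G-CSF, Csf3r, declined less steeply, with 712.9, 340.0, 209.1, 156.4 and 108.4 CPM in KO. Running the other way were Cebpe, the transcription factor of secondary granule production, with 29.6, 59.2, 88.7, 199.0 and 278.5 CPM in KO, and Fcnb, the ficolin of early neutrophil granules, with 19.2, 9.87, 21.4, 81.0 and 257.7 CPM. Cybb, the gp91 subunit of the NADPH oxidase, also ran upward, with 427.0 CPM in the lowest and 2577 CPM in the highest bin in KO and 359.0 and 2565 CPM in WT.

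**Figure D2:**
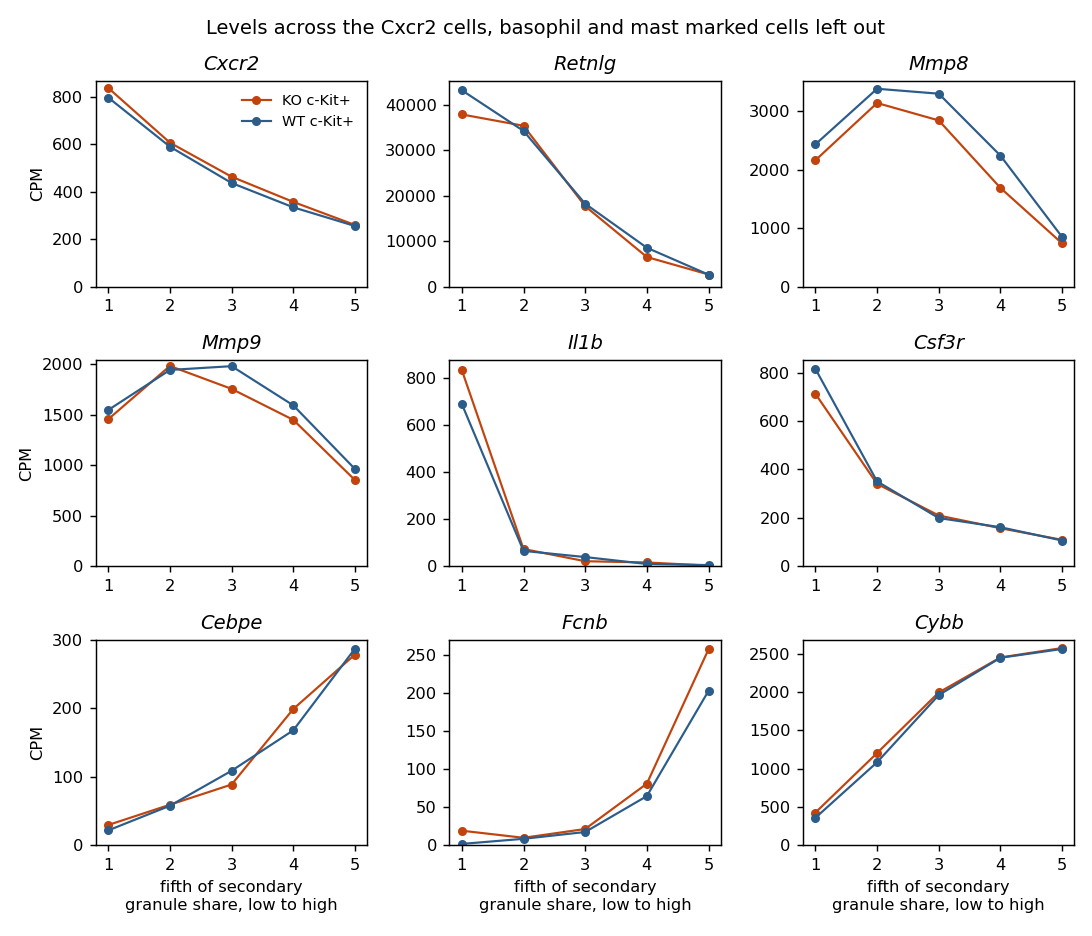
CPM (y axes, linear, from 0) of 9 genes in 5 bins of the Cxcr2 cells by secondary granule share (x axis, low to high), basophil and mast marked cells left out; lines are the KO and WT libraries, 1 value each. Cxcr2, Retnlg, Il1b and Csf3r lie highest at the low end, Mmp8 and Mmp9 in the middle, and Cebpe, Fcnb and Cybb at the high end, in both libraries. The rule required a Cxcr2 UMI in every cell, so the Cxcr2 values depend on depth.

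Against the other QC cells, the genes of late neutrophils led. These values used the same cells as the rule and are descriptions. Of 3510 genes with at least 50 CPM in the higher group, 13.3% were past 2-fold higher in the Cxcr2 cells and 37.9% past 2-fold lower. Retnlg had 14855 CPM in KO and 16397 CPM in WT Cxcr2 cells, against 901.0 and 1018 CPM in the other QC cells, a mean log2 difference of 4.03. Mmp8 differed by 3.66 and Mmp9 by 3.19. The stefin-like protease inhibitors Cstdc4 and Stfa2l1 differed by 4.21 and 3.96, the arginase Arg2 by 3.86, and the matricellular gene Thbs1 by 3.33. Of the receptors for migration, 5 of 7 measured genes were past 2-fold higher, Cxcr2 of the rule included. The formyl peptide receptors Fpr1 (3.35) and Fpr2 (2.47) were among them.

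Among cytokine receptors, 5 of 8 were past 2-fold higher, led by the decoy receptor Il1r2, with 595.4 CPM in KO and 669.8 CPM in WT Cxcr2 cells against 79.8 and 82.2 CPM in the other QC cells. Csf3r had 230.7 and 239.8 CPM against 55.0 and 59.4 CPM. Of the pattern and Fc receptors, 7 of 9 were past 2-fold higher, with the C-type lectins Clec4d (3.24) and Clec4e (2.77) among them. Mxd1, a MAX partner that opposes MYC and is known in maturing granulocytes, had 625.1 and 625.0 CPM against 118.3 and 119.5 CPM. All 16 measured cell cycle genes were past 2-fold lower, with a median log2 of -4.06; the rule itself set Mki67 and Top2a to 0.

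A small set of the Cxcr2 cells carried genes of another lineage. UMIs of 2 or more of 7 basophil and mast cell genes were found in 68 KO cells (4.20%, interval 3.28 to 5.29) and 85 WT cells (5.11%, 4.10 to 6.28). The shares were near those of the other QC cells, 4.08% in KO and 4.35% in WT. Summed, the 7 genes had 499.8 CPM in KO and 525.6 CPM in WT Cxcr2 cells, against 355.5 and 555.9 CPM in the other QC cells. In the marked Cxcr2 cells the median secondary granule share was 0.181% in KO and 0.153% in WT, and 60 of the 68 and 75 of the 85 lay in the lowest bin. Retnlg was found in 27.9% of them in KO and 27.1% in WT, a share near that of the B gate, but at 3719 and 2074 CPM against 562.7 and 648.8 CPM there. Mmp8 was found in 14.7% and 15.3% and Mmp9 in 19.1% and 16.5% of the marked cells, above the B gate shares. The basophil proteases Prss34 and Mcpt8 had 6169 and 2332 CPM there in KO and 4281 and 1992 CPM in WT; in the remaining Cxcr2 cells Prss34 had 5.64 CPM in KO and 8.03 CPM in WT. A Cxcr2 UMI occurred in 121 of 561 KO (21.6%) and 119 of 576 WT (20.7%) basophil and mast marked QC cells, above the B gate. Thinned to 1000 UMIs, the shares were 8.1996% and 7.118%, against 1.18% and 1.19% in the B gate.

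These few cells held most UMIs of several chemokine genes. Of Ccl3, a chemokine for monocytes and granulocytes, 2185 of 2262 UMIs in KO (96.6%) and 3749 of 3948 in WT (94.96%) lay in them. The shares were 95.8% and 93.7% for Ccl4, 90.8% and 91.9% for Ccl9, and 81.5% and 81.7% for Rgs1, a brake on G protein signalling. They held 66.3% and 68.1% of Nlrp3, the inflammasome sensor, and 74.4% and 61.8% of Tnfaip3, the NF-kappaB feedback gene A20. By contrast they held 1.35% of Il1b UMIs in KO and none of 514 in WT, 4.16% and 5.996% of Cxcl2, and 1.04% and 0.687% of Retnlg, against 4.14% and 5.44% of all UMIs.

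**Figure D3:**
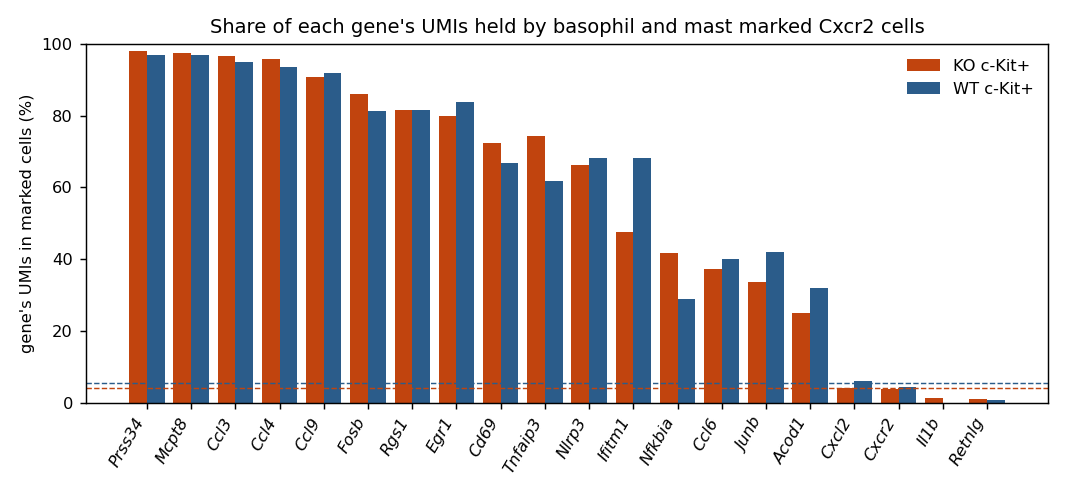
Percent of each gene's UMIs (y axis) found in the basophil and mast marked cells among the Cxcr2 cells, in KO (68 cells) and WT (85 cells); dashed lines are these cells' share of all UMIs, 4.14% and 5.44%. Ccl3, Ccl4 and Ccl9 lie above 90%, with Prss34 and Mcpt8, and Il1b and Retnlg below the dashed lines.

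Other marked cells were fewer. UMIs of 2 or more of 8 macrophage genes were in 54 KO and 52 WT cells, and of 8 class II and dendritic genes in 52 and 48. UMIs of 2 or more of 9 monocyte genes were in 45 KO and 45 WT cells, of 7 B cell genes in 36 and 41, of 9 T and NK cell genes in 7 and 12, of 7 erythroid genes in 16 and 8, and of 7 megakaryocyte genes in 4 and 3. Summed over the list, monocyte genes had 81.0 CPM in KO and 95.7 CPM in WT Cxcr2 cells, against 381.2 and 378.3 CPM in the other QC cells, and all 9 were lower in the Cxcr2 cells of both libraries. B cell genes summed to 178.5 and 169.8 CPM against 533.2 and 604.3 CPM, and all 7 were lower. Macrophage genes were closer, at 118.5 and 138.5 CPM against 134.3 and 152.0 CPM, with 3 of 8 higher in the Cxcr2 cells of each library. Only 1 of 7 megakaryocyte genes and 1 of 8 class II genes were at 0 in each library.

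The closest comparison was with secondary granule cells without Cxcr2. They met the same limits, held at least 2% secondary granule UMIs and had no Cxcr2 UMI: 1989 cells in KO and 2420 in WT. Whether they were at an earlier stage, or Cxcr2 went undetected in them, was not tested. Among the Cxcr2 cells, 64.9% in KO and 63.7% in WT rested on a single Cxcr2 UMI. Of 2382 genes, 4.11% were past 2-fold higher in the Cxcr2 cells and 0.126% past 2-fold lower, Cxcr2 included by the rule. The chemokines Ccl3 and Ccl4 stood near the top with log2 differences of 3.87 and 3.92, but rested on the basophil and mast marked cells. Il1b had 103.7 CPM in KO and 84.8 CPM in WT Cxcr2 cells, against 7.86 and 6.50 CPM. Retnlg differed by 1.83, Clec4d by 2.60 and Cxcl2 by 2.03. Other genes high over the other QC cells differed less here, with Fpr1 at 0.75, Thbs1 at 0.80 and Mmp9 at 0.58. Past 2-fold higher were 1 of 7 migration receptors, which was Cxcr2 itself, 0 of 8 cytokine receptors and 2 of 9 pattern and Fc receptors. Fcnb was lowest, at 105.6 and 70.6 CPM against 224.5 and 207.5 CPM, followed by Orm1, an acute phase glycoprotein, at 114.6 and 71.8 CPM against 209.5 and 177.5 CPM. Camp differed by -0.59 and Cebpe by -0.66. Camp is part of the share that selected the comparison cells, so its value is in part set by the selection. Fcnb, Orm1 and Cebpe were highest in the highest bin of that share in both libraries. The comparison set was limited from below in its secondary granule share and the Cxcr2 cells were not, so the Cxcr2 cells under 2% had no counterpart there.

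In KO against WT, the targeted gene came first. Rbm5 had 95.8 CPM (549 UMIs) in KO and 87.6 CPM (531 UMIs) in WT Cxcr2 cells, a ratio of 1.09 (0.969 to 1.23), and was found in 26.9% and 26.2% of cells. These 3' reads would count transcript outside a deleted part, and which part was deleted is not given, so they do not check the labels. Its paralogs had 61.8 and 59.9 CPM (Rbm6) and 10.6 and 9.41 CPM (Rbm10).

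KO and WT Cxcr2 cells were close over most genes. Of 2276 genes with a mean of at least 50 CPM, 38 were past 1.5-fold (1.67%), 16 higher (0.703%) and 22 lower (0.967%) in KO; the median log2 was -0.04 and the SD over genes 0.28. In the other QC cells, 12 of the same genes were past 1.5-fold, 10 of them among the 38 and on the same side, and 35 of the 38 lay on the same side. With the 5 bins of secondary granule share weighted equally, all 38 stayed on their side and 31 stayed past 1.5-fold; 32 lay on one side in all 5 bins. The late markers differed little: the ratio was 0.906 for Retnlg, 0.815 for Mmp8, 0.903 for Mmp9 and 1.22 for Il1b (1.08 to 1.38). For Cxcr2 the ratio was 1.03 (0.973 to 1.09), but the rule required Cxcr2 in both libraries, so that value is in part set by the selection. The secondary granule list had a median log2 of 0.10 with none of 17 genes past 1.5-fold, and S100a8 and S100a9, the calprotectin subunits, differed by 0.03 and 0.04.

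The inflammatory list stood lower in KO. Of its 12 measured genes, 10 were lower, 5 of them past 1.5-fold, against 1349 of 2276 genes lower and 0.967% past 1.5-fold lower over all genes, and the median log2 was -0.52. Over the cells with at least 2 Cxcr2 UMIs, the marked cells described above included, the median was -0.042, with Ccl3 at 0.18, Ccl4 at 0.40, Tnfaip3 at -0.78, Cxcl2 at -0.48 and Acod1 at -0.46. Since part of this list lay in the basophil and mast marked cells, values without those cells follow. Tnfaip3 had 22.9 CPM in KO and 62.8 CPM in WT, and Nfkbia, the inhibitor IkappaBalpha induced by NF-kappaB, 216.4 and 415.3 CPM. Acod1, the itaconate-producing enzyme, had 83.9 and 138.4 CPM, Cxcl2 322.7 and 476.1 CPM, and Nlrp3 34.4 and 51.3 CPM. Ccl3 had 14.0 and 34.7 CPM, and Ccl4 37.5 and 78.4 CPM; both were below their own B gate levels, 72.6 and 105.7 CPM for Ccl3 and 124.4 and 213.1 CPM for Ccl4. Without the marked cells, 10 of the same 12 genes were again lower, with a median log2 of -0.56. Ccl3, Nlrp3 and Tnfaip3 were then under a mean of 50 CPM. With the 50 CPM level applied again without the marked cells, the median was -0.42.

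Il1b ran against the list, with 106.7 CPM in KO and 89.7 CPM in WT, and Osm, the cytokine oncostatin M, was near equal at 290.5 and 277.1 CPM. Cxcl2, Acod1, Nlrp3, Tnfaip3 and Nfkbia were each lower in KO in all 5 bins. In the other QC cells, the log2 values were -0.33 for Tnfaip3, -0.28 for Nfkbia, -0.25 for Cxcl2, -1.01 for Acod1 and -0.52 for Nlrp3. In the B gate they were -0.01 for Tnfaip3 and -0.12 for Nfkbia, and -0.72 for Cxcl2, -1.02 for Acod1, -0.51 for Nlrp3 and -0.70 for Ccl6, these 4 at 31.3 CPM or less in each library. Those 4 genes were thus lower in KO in the B gate too; the part of transcripts from other cells in their difference was not tested.

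**Figure D4:**
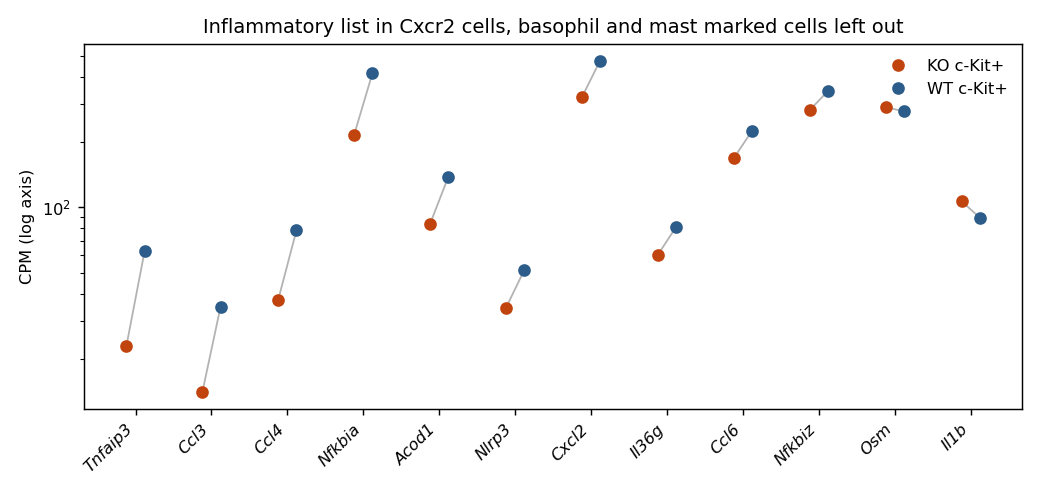
CPM (log axis) of the 12 measured genes of the inflammatory list in Cxcr2 cells without the basophil and mast marked cells, KO left and WT right of each pair, ordered by the log2 KO over WT difference; 1 library a group. KO lies below WT in 10 of 12 pairs, widest for Tnfaip3 (22.9 and 62.8 CPM), and above it for Il1b and Osm.

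The promoters of 3 of these genes are shown because the genes encode the NF-kappaB feedback pair and the CXCR2 ligand of the list and were lower in KO together. Windows run from 250 bases before to 50 after the annotated start, 5′ to 3′ on the gene's strand (RefSeq, GRCm38.p6), for Nfkbia at chr12:55492598-55492897 (minus strand), Tnfaip3 at chr10:19015361-19015660 (minus strand, 1 of 2 windows) and Cxcl2 at chr5:90903649-90903948 (plus strand). Capitals mark kappaB-type letters on either strand: GGG, any 2 bases, then TTTCC.

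Nfkbia: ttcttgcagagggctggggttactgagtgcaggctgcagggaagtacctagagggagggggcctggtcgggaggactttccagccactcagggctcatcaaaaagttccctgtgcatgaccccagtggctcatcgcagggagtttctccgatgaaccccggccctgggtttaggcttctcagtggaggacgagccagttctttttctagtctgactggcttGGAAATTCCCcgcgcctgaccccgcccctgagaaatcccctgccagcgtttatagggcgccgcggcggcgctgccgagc

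Tnfaip3: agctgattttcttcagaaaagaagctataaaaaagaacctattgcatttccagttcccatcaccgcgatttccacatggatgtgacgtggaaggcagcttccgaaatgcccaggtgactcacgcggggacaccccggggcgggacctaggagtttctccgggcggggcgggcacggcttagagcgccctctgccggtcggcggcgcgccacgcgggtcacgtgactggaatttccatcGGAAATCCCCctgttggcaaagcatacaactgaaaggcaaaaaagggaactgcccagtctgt

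Cxcl2: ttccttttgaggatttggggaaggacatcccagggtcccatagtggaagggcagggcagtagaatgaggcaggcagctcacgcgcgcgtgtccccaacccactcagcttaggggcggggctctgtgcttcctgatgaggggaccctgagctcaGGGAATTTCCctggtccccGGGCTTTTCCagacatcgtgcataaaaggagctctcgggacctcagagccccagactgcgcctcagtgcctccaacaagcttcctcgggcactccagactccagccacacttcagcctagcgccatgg

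Nfkbia had 1 match that began 29 bases before the start, Tnfaip3 1 match 12 bases before it, and Cxcl2 2 matches, 97 and 78 bases before it. Of 32851 promoter windows, 1.63% held a match, as did 7 of the 18 genes of the list with a window, including Cxcl1 and Cxcl3. Acod1, Nlrp3, Ccl3 and Il1b had none in these windows. A match describes letters only.

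Windows of Ngp at chr9:110419558-110419857 and Mmp8 at chr9:7558179-7558478 (both plus strand) are shown for the order of maturity, since Ngp is part of the share that sets the order and Mmp8 peaked within it. Capitals mark the C/EBP-type letters TTGCNNAA on either strand.

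Ngp: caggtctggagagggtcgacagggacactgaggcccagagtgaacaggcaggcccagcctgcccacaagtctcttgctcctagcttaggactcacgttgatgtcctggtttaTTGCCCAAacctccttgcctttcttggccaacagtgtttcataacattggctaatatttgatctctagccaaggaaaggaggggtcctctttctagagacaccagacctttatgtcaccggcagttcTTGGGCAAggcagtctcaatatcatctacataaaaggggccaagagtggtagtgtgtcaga

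Mmp8: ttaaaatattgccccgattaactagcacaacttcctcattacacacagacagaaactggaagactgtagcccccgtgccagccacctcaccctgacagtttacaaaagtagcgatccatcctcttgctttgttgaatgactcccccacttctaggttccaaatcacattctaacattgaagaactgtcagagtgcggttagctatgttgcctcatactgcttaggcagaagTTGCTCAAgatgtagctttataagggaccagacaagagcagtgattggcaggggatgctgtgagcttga

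Ngp held 2 matches, 138 and 11 bases before the start, and Mmp8 held 1, 19 bases before it. Such letters were in 10.8% of all windows, in 4 of 6 secondary granule and precursor genes with a window and in 2 of 7 late genes.

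Immediate early genes were lower in KO for the most part. Of 16 measured genes of the early response list, 13 were lower and 2 of them past 1.5-fold, with a median log2 of -0.26, against 1349 of 2276 lower and 0.967% past 1.5-fold lower over all genes. Over the cells with at least 2 Cxcr2 UMIs the median was -0.0094. The basophil and mast marked cells held 86.1% of Fosb UMIs in KO and 81.3% in WT, and 79.9% and 83.8% of Egr1 UMIs. Without them Egr1 had 47.9 CPM in KO and 44.0 CPM in WT, and Fosb 39.3 and 70.2 CPM. Over the same 16 genes without those cells, 13 were lower, 3 of them past 1.5-fold, with a median of -0.28. Klf2, a factor of quiescence and trafficking, had 335 CPM in KO and 512 CPM in WT, with -0.60 in the other QC cells and -0.37 in the B gate. Ier5 had 67.2 and 110.4 CPM, with -0.20 in the other QC cells. Fos was near equal, at 693 and 688 CPM. Junb had 570 and 656 CPM over all Cxcr2 cells and 395.6 and 402.8 CPM without the basophil and mast marked cells.

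The formyl peptide receptors, which are related genes, ran opposite ways. Whether reads alike in both genes bear on this was not tested. Fpr1 had 168.9 CPM in KO and 289.5 CPM in WT, a ratio of 0.584 (0.539 to 0.632), was found in 37.9% and 49.8% of cells, and was lower in all 5 bins. Fpr2 had 407.1 and 322.6 CPM, a ratio of 1.26 (1.19 to 1.34), and was higher in all 5. In the other QC cells the log2 values were -1.03 for Fpr1 and 0.24 for Fpr2, and in the B gate, where Fpr1 had 6.76 and 15.5 CPM, -1.09 and 0.24. Per2, a core clock gene, likewise had 38.6 and 67.2 CPM, with -0.74 in the other QC cells and -0.997 in the B gate.

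Several genes were lower in KO here with a smaller difference in the other QC cells. Arhgef3, a RhoA exchange factor, had 46.9 CPM in KO and 95.6 CPM in WT, a ratio of 0.491 (0.424 to 0.569), against -0.43 on the log2 scale in the other QC cells. Mapkapk2, the kinase downstream of p38 that stabilises cytokine transcripts, had 112.9 and 183.0 CPM, a ratio of 0.617, was found in 30.1% and 41.2% of cells, and differed by -0.13 in the other QC cells. Orai2, a calcium channel subunit, had 46.4 and 72.6 CPM, and -0.18 in the other QC cells. Mtmr6 (40.0 and 63.5 CPM), Klhdc10 (52.2 and 84.7 CPM) and the inflammatory caspase gene Casp4 (40.3 and 64.0 CPM) lay at ratios of 0.629, 0.616 and 0.630. These genes were also lower in KO in the secondary granule cells without Cxcr2, the most similar cells. Arhgef3 had 42.4 CPM in KO and 75.8 CPM in WT there, and Mapkapk2 101.1 and 145.6 CPM. Klhdc10 had 71.8 and 101.5 CPM, Casp4 38.8 and 60.5 CPM, Orai2 38.0 and 47.7 CPM, and Mtmr6 39.8 and 47.8 CPM. Whether the KO difference in the Cxcr2 cells departs from that in other cells could not be tested with 1 library a group.

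The Ifitm genes, membrane proteins that restrict virus entry, were higher in KO. Ifitm2 had 875.5 CPM in KO and 529.2 CPM in WT, a ratio of 1.65 (1.58 to 1.73), and was found in 84.5% and 71.6% of cells. Ifitm6 had 4179 and 2804 CPM, and Ifitm3 1041 and 843 CPM. Without the basophil and mast marked cells, Ifitm1 had 136.9 and 53.9 CPM, and 14.2% and 6.91% of cells held a UMI. All 4 were higher in KO in all 5 bins, and in the other QC cells by 0.43 to 0.65. Of the 25 genes of the interferon list, 6 were measured and 5 were higher; the 3 that are not Ifitm genes lay between -0.10 and 0.18. Tspo, the outer mitochondrial translocator protein, had 696.8 and 430.6 CPM, a ratio of 1.62 (1.54 to 1.70), with 0.42 in the other QC cells. In the B gate the log2 values were 0.46 for both Ifitm2 and Tspo, 0.42 for Ifitm6 and 0.49 for Ifitm1; the part of transcripts from other cells was not tested.

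Wfdc17, a whey acidic protein family gene of activated phagocytes, showed the largest ratio among ranked genes, with 145.5 CPM in KO and 47.9 CPM in WT (834 and 290 UMIs), a ratio of 3.04 (2.66 to 3.49). It was found in 12.04% of KO and 7.096% of WT cells, and in the lowest bin it had 1236 and 335.4 CPM without the basophil and mast marked cells. The 10 cells with most UMIs held 28.5% of them in KO and 32.4% in WT. Over Cxcr2 cells with at least 2000 UMIs and 1000 genes its log2 value was 0.22, against 1.58 over all Cxcr2 cells. Cmah, the sialic acid hydroxylase, had 152.2 and 95.9 CPM, and Orm1 114.6 and 71.8 CPM. Their log2 values in the other QC cells were 0.24 and -0.00. In the secondary granule cells without Cxcr2, Cmah had 133.2 CPM in KO and 85.7 CPM in WT, and Orm1 209.5 and 177.5 CPM. H2-Aa, a class II chain, had 68.9 and 34.7 CPM, but 10 cells held 72.2% of its UMIs in KO and 41.4% in WT, and its log2 value of 0.97 became 0.25 without cells marked as another lineage, 1.93 without Scrublet doublets and 1.27 with at least 2 Cxcr2 UMIs.

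**Figure D5:**
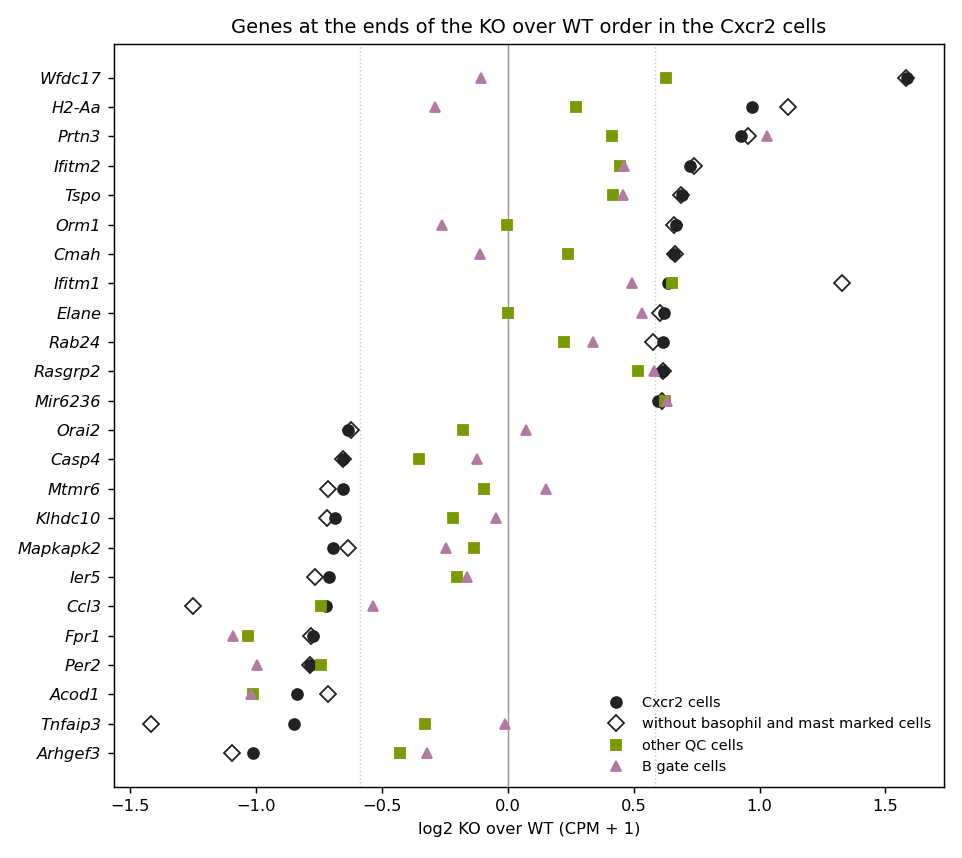
Log2 KO over WT (x axis, CPM + 1; dotted lines mark 1.5-fold) of the 12 highest and 12 lowest ranked genes in the Cxcr2 cells, with the same genes without basophil and mast marked cells, in the other QC cells and in the B gate; 1 library a group. Fpr1, Per2, Acod1, Prtn3, Elane and Mir6236 show a B gate value near or past that of the Cxcr2 cells, whereas Arhgef3, Tnfaip3, Wfdc17 and Orai2 do not.

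Of the primary granule list, 3 of 4 measured genes were higher in KO and 2 of them past 1.5-fold. Srgn, the granule proteoglycan serglycin, had 1540 and 1505 CPM, and Igsf6 150.4 and 179.2 CPM. The 4 genes of the rule were low and higher in KO. Elane had 129.1 CPM in KO and 83.7 CPM in WT, Prtn3 112.2 and 58.6 CPM, Mpo 53.7 and 32.8 CPM and Ctsg 56.4 and 33.3 CPM; the rule used these genes, in the same way in both libraries. In the B gate the levels were 1799 and 1243 CPM of Elane and 1827 and 895 CPM of Prtn3, higher in KO by 0.53 and 1.03 on the log2 scale. Elane and Prtn3 in the Cxcr2 cells were thus far below the B gate and higher in KO in both; the part of transcripts from other cells was not tested.

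Haemoglobin transcripts showed the widest difference. All 4 haemoglobin genes counted among the 16 higher genes, and Hbb-bs had 1158 CPM in KO and 122.6 CPM in WT. The 10 cells with most haemoglobin held 81.0% of its UMIs in KO and 20.2% in WT, and the median cell held 1 UMI in each. A Hbb-bs UMI was found in 50.5% of KO and 31.7% of WT Cxcr2 cells, and in 52.7% and 33.4% of B gate cells, so the share of cells with a UMI was close to that of the B gate in both libraries.

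The same rule was applied to the leukaemia libraries. It kept 1861 of 11778 QC cells in KO (15.8%) and 1408 of 13177 in WT (10.7%) MLL-AF9 samples, described only. There Retnlg had 1974 CPM in KO and 1905 CPM in WT, against 14855 CPM in KO and 16397 CPM in WT c-Kit+ marrow. Il1b had a UMI in 76.1% of KO and 29.8% of WT leukaemic Cxcr2 cells. Meis1, a HOX cofactor known in MLL leukaemia, had 372.0 CPM in KO and 646.2 CPM in WT leukaemia and 19.2 and 14.2 CPM in KO and WT marrow Cxcr2 cells. The cells kept in leukaemia therefore differed from the marrow cells in these genes under an identical rule. Xist had 73770 and 134823 UMIs in KO and WT leukaemia QC cells and 5 and 6 in the marrow libraries, so sex cannot be told apart from disease in that comparison.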

How the data were processed

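UMI counts per gene and cell barcode were deposited by the authors as 1 filtered matrix per library, made with Cell Ranger 7.1.0 on mm10, per the submitters' processing notes; the values are raw counts. From them, QC cells were taken at 500 genes, 1000 UMIs and 10% mitochondrial UMIs, and levels were computed as CPM of summed UMIs with Python 3.11.15, numpy 2.4.6, scipy 1.17.1 and pandas 2.3.3. Log2 ratios used a pseudocount of 1 CPM over genes at 50 CPM or more. With 1 library a group there was no test, and nothing shows how far separate mice would differ.

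Intervals are 95% Clopper-Pearson (shares), exact Poisson (levels) and conditional binomial (ratios). Doublets were called per library with Scrublet in scanpy 1.11.5 at an expected rate of 0.08 and kept. Cells were marked for another lineage by UMIs of 2 or more of its genes. Of 336 listed genes, 2 symbols were not found. Promoters are from RefSeq. The counting steps were tested on simulated data.

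The cells, gene lists and comparisons were chosen with earlier results of these data known. Named genes were the markers and rule genes, the 12 highest and 12 lowest KO over WT, the 20 highest and 10 lowest over other QC cells, the 10 highest and lowest over secondary granule cells without Cxcr2, and up to 4 of each list. Mitochondrial, Xist, Y-linked, haemoglobin, immunoglobulin and T cell receptor genes and unnamed gene models (such as Gm or Rik numbers) did not enter the rankings, which set aside 7 of the 38 genes past 1.5-fold, 4 of them haemoglobins. The genes plotted along the bins, Rgs1, Ccl9, Meis1 and others outside these rankings were chosen after their values were seen. Alternatives covered cell filters, doublets, rule limits, other lineages, pseudocount, level, weights, depth, scaling and maturity.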

Additional observations from a re-analysis of the deposited data

How the results depend on the processing

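The share of Cxcr2 cells was 8.41% in KO and 9.62% in WT with at least 2000 UMIs and 1000 genes, 4.14% and 4.66% with at least 2 Cxcr2 UMIs, and 17.6% and 17.96% with cells marked as another lineage left out. It was 12.3% in WT with the basophil and mast marked cells left out, an alternative chosen after seeing the data. With the rule applied at 1000 UMIs a cell it was 5.85% in KO and 5.80% in WT, and the KO over WT ratio turned to 1.01 from 0.920; the cause was not tested.

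The 38 genes past 1.5-fold in KO over WT became 80 at 20 CPM or more, 25 at 100 CPM or more and 67 with cells thinned to 1000 UMIs. The 1797 genes past 2-fold over other QC cells became 1167 with other lineages left out, 3221 at 20 CPM or more and 990 at 100 CPM or more. With at least 2 Cxcr2 UMIs, Ccl3 turned to a log2 KO over WT of 0.18, Ccl4 to 0.40 and the median of the pattern and Fc receptors list to 0.076, and the medians of the inflammatory and early response lists shrank to -0.042 and -0.0094. The survival and death list turned to a median of 0.014 at 100 CPM or more, with fewer genes measured. Over other QC cells, Slc25a21 turned to 0.17 and Sox6 to 0.061 with other lineages left out.

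Of 544 values of 34 named genes over 16 settings in KO over WT, 486 stayed inside the counting interval of the main value, 57 moved outside it and 1 called value, that of Ccl3, turned; 4 in all had the other sign (Ccl3, Ccl4 and, in 2 settings, Junb). No paired analysis was possible because each group is 1 library and the labels number no replicates. Low genes are limited by depth: 64.9% of KO and 63.7% of WT Cxcr2 cells rest on 1 Cxcr2 UMI.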
